A study of Mus musculus with 20 samples.

Results

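The transcripts described here encode the enzymes and scaffolds that degrade messenger RNA. They are 45 of the 23284 genes in the deposited tables, and they were chosen by name alone: the subunits of the CCR4-NOT deadenylase (symbols made of Cnot and a number), the RNA exosome (Exosc), the Lsm1 to Lsm7 ring, the nonsense-mediated decay factors (Smg and Upf), and a short set of decapping, deadenylation and exonuclease genes. The naming rule itself uses no measured value. By role they fall into 9 CCR4-NOT genes, 3 other deadenylase genes (Pan2, Pan3 and Parn), 13 genes of decapping and its activators, the pair of 5'-3' exonuclease genes Xrn1 and Xrn2, 10 exosome genes and 8 nonsense-mediated decay genes. All 45 passed the filter on low counts in every fit.

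Bulk mRNA decay usually starts with shortening of the poly(A) tail, first by PAN2-PAN3 and then by CCR4-NOT. The deadenylated mRNA is then either decapped by DCP2, helped by the Lsm ring and the EDC proteins, and eaten from its 5' end by XRN1, or degraded from its 3' end by the exosome. Nonsense-mediated decay, in which UPF1 and the SMG proteins act, removes mRNAs with premature stop codons.

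The samples are mouse embryonic stem cells, which are pluripotent cells grown from the early embryo, on gelatin with LIF. In each of 3 lines CRISPR-Cas9n had placed a C-terminal triple tag (Flag, HA and Twin-Strep) at an endogenous gene: Tet1 (Tet1-KI), Tet2 (Tet2-KI), or a Tet2 without its RNA binding domain, called Tet2ΔRBD here. TET proteins are dioxygenases that oxidise 5-methylcytosine, and the series asks which RNAs go with each of them. RNA bound to the tagged protein was recovered from cytoplasmic extract with an anti-Flag antibody (IP) and sequenced as poly(A) RNA beside the total input RNA of the same number. There were 4 IP and 4 input libraries from the Tet2 line, 4 and 4 from the Tet2ΔRBD line, and 2 and 2 from the Tet1 line. All 3 lines carry a tagged TET protein, and an untagged or control-antibody library was not analysed here, so a transcript above its input is one that the anti-Flag precipitate held in relative excess. The lines came from picked clones, and how many clones each represents is not given in the sources used here. The study calls its RIP-Seq experiments biological replicates, but the labels do not say which numbered libraries came from separate cultures, so p-values measure the spread between these samples, which may be technical.

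The 20 libraries held between 21078995 and 37576638 expected counts (median 25517290). The pluripotency gene Pou5f1 lay between 2000 and 3214 TPM, the share of a transcript among all transcripts corrected for length, in every library, while of 9 markers of other cell types T, Fgf5, Pax6 and Col3a1 stayed under 1 TPM and the endoderm genes Gata4, Gata6 and Sox17 and the fibroblast genes Thy1 and Col1a1 reached 17.8 to 48.1 TPM. The numbering of the deposited files places the libraries in 3 sets: replicate 1 of Tet2 and Tet2ΔRBD, replicate 2 of both, and replicates 3 and 4 of both with all Tet1 libraries. One library stood apart from its nearest neighbour: between Tet2ΔRBD inputs 3 and 4, 9 of the 45 transcripts differed by more than 0.25 on the log2 scale, all higher in input 4, as did 20.9% of all tested genes, against 0 of 45 and 8.09% between Tet2 inputs 3 and 4. Upf2 was the furthest, at 7.81 TPM in input 4 and 2.85 TPM in input 3. The log2 ratio of input 4 over input 3 correlated with the fitted Tet2 IP over input ratio at r = 0.53 (rho = 0.20) over the 45 and at r = 0.40 (rho = 0.29) over all tested genes, so input 4 lay nearer to the IP libraries. Results of the Tet2ΔRBD line are therefore given with and without replicate 4 where they turn on it.

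Because the oxidised base is a cytosine, the longest unbroken run of pyrimidines (C and T in the DNA letters) was taken from each joined coding sequence. For the transcripts shown, the longest run inside 1 coding exon was taken. They are the 3 furthest above input and the 3 furthest below input in the Tet2 IP, among decay transcripts that passed the test. Capitals mark the run, and up to 15 bases of the same coding exon stand on each side. Coordinates are mm9, and each sequence is written 5' to 3' on the strand of the gene.
Upf2, exon 3, chr2:5882310-5882352, plus strand: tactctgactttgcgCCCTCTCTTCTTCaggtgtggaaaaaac
Smg1, exon 45, chr7:125300034-125300076, minus strand: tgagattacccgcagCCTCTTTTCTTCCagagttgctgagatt
Exosc10, exon 23, chr4:147955213-147955252, plus strand: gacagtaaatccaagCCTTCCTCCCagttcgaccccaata
Lsm5, exon 1, chr6:56654617-56654644, minus strand: acgaacccgtcccaaCTCCTgccactag
Lsm2, exon 2, chr17:35119565-35119597, plus strand: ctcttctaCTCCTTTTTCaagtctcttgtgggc
Lsm7, exon 2, chr10:80317397-80317433, minus strand: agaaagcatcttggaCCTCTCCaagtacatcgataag

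The runs were 13 bases long in Upf2 and Smg1, 10 in Exosc10 and Lsm2, 7 in Lsm7 and 5 in Lsm5. Over the joined coding sequence, where a run can cross exon borders, 9 of the 44 decay transcripts with an annotated one held 13 or more bases. Of the 13109 tested genes with one, 22.5% did. Across those 44 transcripts the longest run correlated with the fitted Tet2 IP over input ratio at r = 0.43 (rho = 0.52). Over the 13109 genes the correlation was weaker, at r = 0.15 (rho = 0.22). In the 44 the longest run also correlated with the length of the coding sequence at r = 0.62 (rho = 0.68), since a longer sequence has more chances of a long run. The share of pyrimidines correlated with the ratio at r = 0.13 in the 44 and r = -0.19 in the 13109. The median share of pyrimidines was 46.6% in the decay transcripts and 47.7% in all tested genes.

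The decay machinery was well expressed in these cells, with a median over the 45 transcripts of 33.3 TPM in the inputs against 9.21 TPM over all tested genes. TPM is a level per length, so transcripts can be compared with each other. The Lsm proteins form a ring that binds the 3' end of short-tailed mRNA in the cytoplasm, and 5 of them led the order: Lsm7 at 397 ± 93.4 TPM (SD, n = 10 inputs), Lsm4 at 392.3 ± 48.4, Lsm5 at 358 ± 93.2, Lsm3 at 356 ± 88.8 and Lsm2 at 257 ± 25.9. Lsm7, Lsm4, Lsm5 and Lsm3 did not differ beyond their spread. These 5 subunits are shared with the nuclear Lsm2-8 ring, whereas Lsm1, which defines the cytoplasmic ring, had 42.1 ± 10.9 TPM. The 10 exosome transcripts followed as a group, from 23.9 TPM for Exosc9 to 191 TPM for Exosc5 (median 74.6).

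The 5 lowest were Smg1, Upf2, Dcp1b, Cnot6l and Xrn1. Smg1, the kinase that phosphorylates UPF1, had 2.68 ± 0.845 TPM (SD, n = 10), and Upf2, which bridges UPF1 to the exon junction complex, had 2.45 ± 2.00 TPM. Xrn1, the cytoplasmic 5'-3' exonuclease, was the lowest of the 45 at 0.447 ± 0.200 TPM, with a range of 0.22 to 0.77 TPM, while its nuclear relative Xrn2 had 31.0 ± 8.82 TPM. The remaining 44 transcripts averaged at least 1 TPM.

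Paralogous catalytic subunits were unequal. Cnot7 and Cnot8 encode alternative deadenylases of CCR4-NOT, and Cnot8 had 70.0 to 138 TPM in the 10 inputs where Cnot7 had 6.20 to 33.6 TPM, with no overlap. Cnot6, of the other catalytic pair, had 7.92 to 19.3 TPM and Cnot6l had 1.27 to 2.48 TPM, again without overlap. These pairs are similar in sequence and RSEM divides shared reads between them, so each level is uncertain to that extent. Down the whole order most neighbours overlapped: only 6 of the 44 steps from one transcript to the next were larger than the SD on both sides, and these came after Lsm3, Lsm2, Dcp2, Smg6, Cnot4 and Cnot6l.

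**Figure D1:**
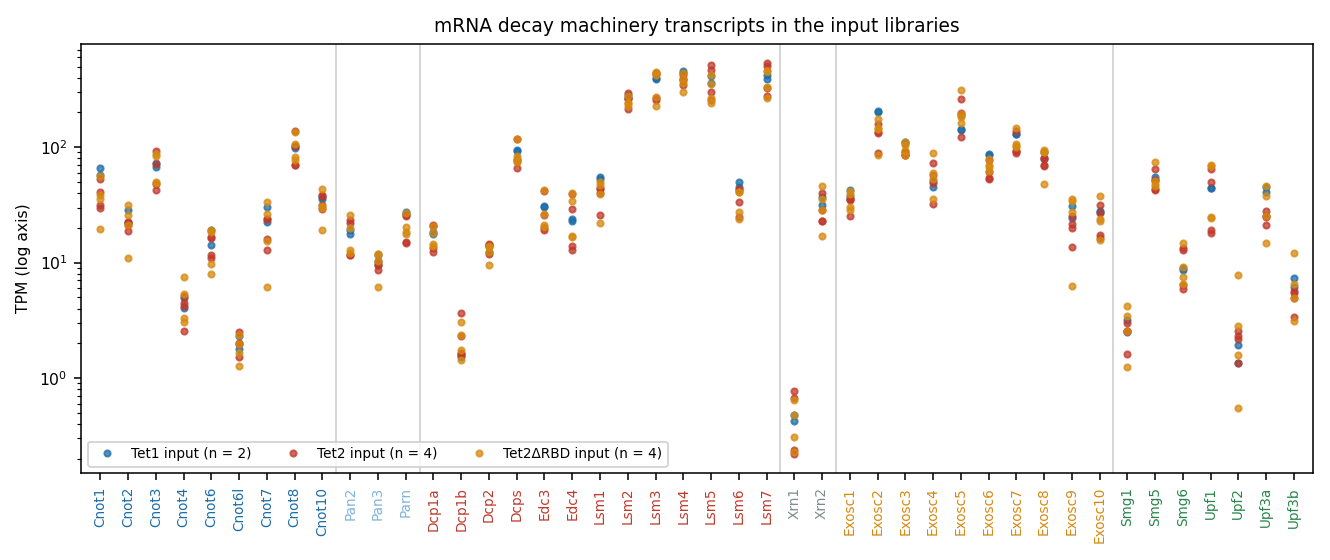
TPM of 44 mRNA decay transcripts in the 10 input libraries on a log axis, grouped by role, 1 point a library. The Lsm transcripts reach 397 TPM on average (Lsm7), and Xrn1 lies at the bottom at 0.447 TPM.

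In the Tet2 IP all 7 Lsm transcripts and 8 of Exosc1 to Exosc9 were fitted below input. Those that passed the test above input came from nonsense-mediated decay, decapping, deadenylation and the exosome. Of the 45 transcripts 17 differed from input at an adjusted p under 0.05 in edgeR's quasi-likelihood test, or 37.8%, where 33.1% of all 13710 tested genes did. Above input were 7 (15.6%, against 14.6% of all tested genes), and below were 10 (22.2%, against 18.5%). These shares were thus near the background, and what follows concerns which transcripts moved. The median fitted log2 ratio was -0.06 for the 45 and 0.0032 for all tested genes. The ratios of TPM + 1 run higher than the fitted ones, with a median over all tested genes of 0.23 in the Tet2 pairs, and on that scale limma called 16 decay transcripts above and 7 below input, when it called 43.1% of all tested genes.

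The strongest excess was in nonsense-mediated decay. Upf2 (chr2:5872515-5977749, plus strand) had 15.4, 6.09, 9.38 and 8.34 TPM in the 4 Tet2 IP libraries and 1.35, 2.33, 2.16 and 2.56 TPM in their inputs. Every IP value exceeded every input value. The fitted log2 ratio was 1.85 (SE 0.48, adjusted p = 0.014), and without replicate 1, whose IP was the highest, it was 1.48 (adjusted p = 0.055).

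Smg1 (chr7:125274832-125387151, minus strand) had 10.4, 5.93, 4.42 and 4.57 TPM in IP and 2.98, 1.61, 2.56 and 2.58 TPM in input. The groups did not overlap, replicates 1 and 2 showing the widest gaps. Its fitted log2 ratio was 1.01 (SE 0.22, adjusted p = 0.0058), and the call held without any one replicate. Smg6, the endonuclease that cuts the target mRNA, was above input by 0.38 (SE 0.12, adjusted p = 0.031), a call that was lost without replicate 1, 2 or 3 (adjusted p of 0.11, 0.12 and 0.054). The other 5 of the 8 genes did not pass, and Upf1, the central helicase, had a ratio of 0.13 (SE 0.13, adjusted p = 0.45).

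In the exosome 1 transcript was called above input and 4 below. Exosc10 (chr4:147932538-147956510, plus strand), a 3'-5' exonuclease found mainly in the nucleus, had 51.0, 85.6, 31.7 and 27.9 TPM in IP and 31.7, 26.8, 16.5 and 17.4 TPM in input. Each IP exceeded its own input, though the groups overlapped because the levels of replicates 3 and 4 were lower throughout. The fitted ratio was 0.68 (SE 0.20, adjusted p = 0.025), and it missed the threshold without replicate 2 (adjusted p = 0.088) or replicate 3 (0.062). None of Exosc1 to Exosc9, which encode the ring and cap of the exosome, was called above input, and 4 were called below: Exosc1 (-0.69), Exosc3 (-0.66), Exosc2 (-0.49) and Exosc4 (-0.47). The median fitted ratio of these 9 was -0.39. On the scale of TPM + 1 these 4 kept a mean ratio below 0 (-0.35, -0.34, -0.17 and -0.15), and Exosc2 and Exosc4 were not called by limma.

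Exosc3, a cap subunit, illustrates the size of these deficits. It had 84.9, 64.3, 68.1 and 63.1 TPM in IP and 85.3, 85.9, 89.7 and 92.1 TPM in input. All 4 IP values were below all inputs, by very little in replicate 1. The fitted ratio was -0.66 (SE 0.11, adjusted p = 0.0018).

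The Lsm ring was the group furthest below input. Of Lsm1 to Lsm7, 6 were called below and the seventh, Lsm4, had a fitted ratio of -0.26 (adjusted p = 0.17), and the median of the 7 was -0.79. On the scale of TPM + 1 the mean ratio was below 0 for the 6 as well, while Lsm4 had 0.06. Lsm5 (chr6:56651059-56654693, minus strand) had 189, 128, 299 and 307 TPM in IP and 300, 254, 511 and 464 TPM in input. Each IP was below its own input, while the groups overlapped because replicates 3 and 4 had higher levels in both. Its fitted ratio was -1.07 (SE 0.17, adjusted p = 0.0013), the lowest of the 45.

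Lsm2 (chr17:35118807-35122836, plus strand) had 130, 153, 201 and 207 TPM in IP and 214, 293, 262 and 264 TPM in input. Here the groups did not overlap, and the fitted ratio was -0.92 (SE 0.14, adjusted p = 0.0013). Lsm7 (chr10:80315570-80317954, minus strand) had 183, 190, 423 and 432 TPM in IP and 280, 326, 503 and 532 TPM in input. Again each IP was below its own input but the groups overlapped, with a fitted ratio of -0.80 (SE 0.15, adjusted p = 0.0034). Lsm3 was called at -0.79 but missed the threshold without replicate 1 (-0.70, adjusted p = 0.066), whereas Lsm1, Lsm2, Lsm5, Lsm6 and Lsm7 were called without any one replicate. Lsm6 was not called by limma on the scale of TPM + 1.

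Decapping and deadenylation showed smaller differences. Edc4, the scaffold of the decapping complex, was above input by 0.37 (SE 0.11, adjusted p = 0.027). Cnot10, a CCR4-NOT subunit, was above by 0.37 (SE 0.13, adjusted p = 0.048), and Pan2, the catalytic subunit of PAN2-PAN3, by 0.27 (adjusted p = 0.039). None of these 3 calls survived every omission of 1 replicate: Edc4 was lost without replicate 1, 2 or 3 (adjusted p of 0.078, 0.11 and 0.081), Cnot10 and Pan2 without any one of the 4 (0.057 to 0.15 and 0.083 to 0.12).

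The enzymes at the heart of each step were mostly not called. Among the CCR4-NOT catalytic subunits the fitted ratios were -0.61 for Cnot7 (adjusted p = 0.070), -0.36 for Cnot6l (0.092), -0.21 for Cnot6 (0.26) and 0.04 for Cnot8 (0.81). Cnot1, the scaffold of the complex, had 0.33 (adjusted p = 0.13). Dcp2, the decapping enzyme, had 0.25 (adjusted p = 0.28), and Dcps, which clears the cap left by 3'-5' decay, had -0.35 (adjusted p = 0.12). Parn, a poly(A)-specific ribonuclease, had -0.09 (adjusted p = 0.45), a sign that turned on the scale of TPM + 1 (0.22), as did those of Cnot6 and Cnot6l, none of them called on either. Xrn1 had 0.81 (SE 0.31, adjusted p = 0.068), at IP levels of only 0.36 to 2.17 TPM, and Xrn2 had -0.35 (adjusted p = 0.079).

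**Figure D2:**
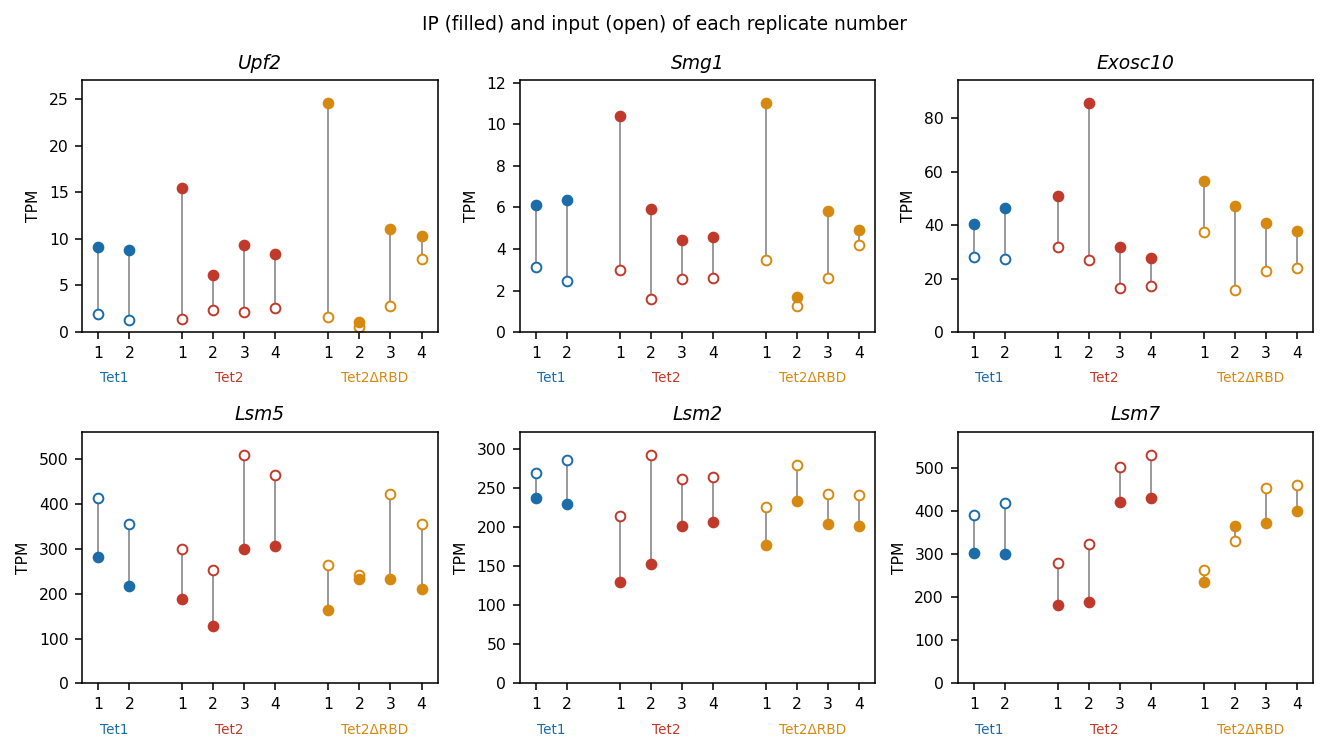
TPM in each IP and input library of 6 decay transcripts, by line and replicate number, with IP filled and input open. They are the 3 furthest above input and the 3 furthest below input among those called in the Tet2 IP. Upf2 reaches 15.4 TPM in Tet2 IP against at most 2.56 TPM in Tet2 input, and Lsm2 lies at 130 to 207 TPM against 214 to 293 TPM.

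Without its RNA binding domain, Tet2 gave fewer calls with the same signs. In the Tet2ΔRBD line 8 of the 45 transcripts differed from input, or 17.8%, against 19.5% of all tested genes: 2 above (4.44%, against 7.4% of all tested genes) and 6 below (13.3%, against 12.1%). On the scale of TPM + 1 limma called 15 above and 1 below, when it called 28.1% of all tested genes. All 8 were also called in the Tet2 line, so they were 8 of its 17 calls and 8 of the 8 here. All 17 Tet2 calls had the same sign in Tet2ΔRBD. How often all tested genes shared sign was not computed, and their fitted ratios in both lines correlated at r = 0.86. Exosc10 was above input by 0.64 (adjusted p = 0.048) and Cnot10 by 0.42 (adjusted p = 0.046). Below were Lsm5 (-0.87), Lsm2 (-0.55), Lsm1 (-0.52), Exosc1 (-0.46), Exosc3 (-0.42) and Exosc4 (-0.30).

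These calls were fragile. Lsm5 was called without any one replicate, while each of the other 7 was lost in at least 1 omission, and without replicate 3 Lsm5 alone remained. Without replicate 1 there were 4 calls, without replicate 2 there were 10, and without replicate 4 there were 5. The losses without replicate 3 had adjusted p from 0.078 for Lsm1 to 0.17 for Exosc4.

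Upf2 varied most. It had 24.6, 1.08, 11.1 and 10.4 TPM in Tet2ΔRBD IP and 1.59, 0.55, 2.85 and 7.81 TPM in input. Replicate 2 was low in both, and input 4 was the high input described above, so the groups overlapped. The fitted ratio was 1.52 (SE 0.50, adjusted p = 0.055), and without replicate 4 it was 2.05 (adjusted p = 0.022).

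Smg1 had 11.0, 1.71, 5.84 and 4.91 TPM in IP and 3.46, 1.24, 2.58 and 4.17 TPM in input. Every IP exceeded its own input, by the least in replicates 2 and 4. Its fitted ratio was 0.61 (SE 0.22, adjusted p = 0.069), and 0.83 without replicate 4 (adjusted p = 0.028).

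For Lsm2 the Tet2ΔRBD IP held 177, 233, 204 and 202 TPM and the inputs 225, 279, 243 and 241 TPM. Each IP was below its own input, by the most in replicate 1. Lsm5 had 163, 232, 233 and 211.7 TPM in IP and 265, 241, 422 and 355 TPM in input. All 4 pairs went down, replicate 2 only slightly.

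The direct comparison of both lines asks what the RNA binding domain contributes. By edgeR no decay transcript had an IP over input ratio that differed between Tet2 and Tet2ΔRBD (0 of 45, with 0.0219% of all tested genes called). DESeq2 also called 0. Under an unadjusted p of 0.05 by edgeR were 1 of the 45, Lsm6, and 416 of the 13710 tested genes. The fitted differences of the 45 ran from -0.40 for Lsm7 (SE 0.22) to 0.39 for Smg1 (SE 0.30), with a median of -0.05 against -0.0051 for all tested genes. Lsm3 differed by -0.38 (SE 0.28). For Upf2 the difference was 0.33 with an SE of 0.68, which leaves room for a large difference either way. These differences include Tet2ΔRBD replicate 4. Without it the Tet2ΔRBD ratio of Upf2 was 2.05, above the 1.85 of the Tet2 line, and that of Smg1 rose towards its Tet2 ratio.

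All 7 Lsm transcripts were fitted lower in the Tet2 line than in Tet2ΔRBD, from -0.40 to -0.20, and so were all 9 of Exosc1 to Exosc9, from -0.24 to -0.05, none of them past the test (adjusted p = 1.00 for each). By replicate number the ratio of TPM + 1 in Tet2 minus that in Tet2ΔRBD was -0.34, -0.29, -0.25 and -0.18 for Lsm6 and -0.37, -0.68, -0.13 and -0.10 for Lsm2. Both were picked for having 1 sign at every replicate number, so that agreement is not a finding. For Lsm2 the size differed widely, being largest for replicate 2. Lsm7, with a larger fitted difference, did not meet that condition: its replicate 3 had -0.25 in Tet2 and -0.29 in Tet2ΔRBD. Across the 45 transcripts the fitted ratios of both lines correlated at r = 0.96 (rho = 0.95), and at r = 0.86 across all tested genes, where the lines have separate inputs but share library sets.

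**Figure D3:**
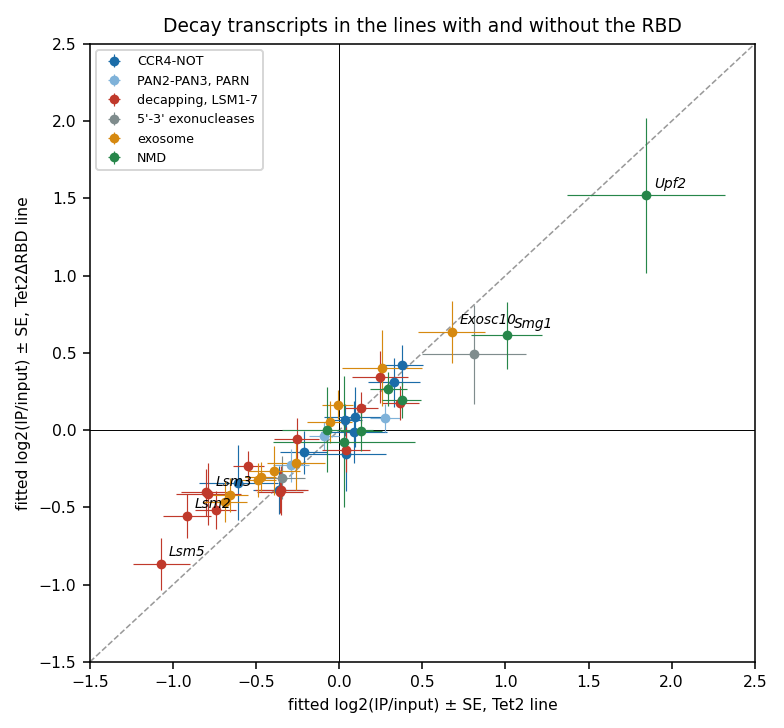
Fitted log2 IP over input ratio of 44 decay transcripts in the Tet2ΔRBD line against the Tet2 line, with the standard error of each ratio as bars and equality as a dashed line. The points rise together (r = 0.96 over the 45), from Lsm5 at -1.07 in Tet2 to Upf2 at 1.85.

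In the Tet1 IP none of the 45 transcripts differed from input by edgeR (0%). Of all tested genes 5.9% did, 2.72% above and 3.18% below. Under an unadjusted p of 0.05 were 11 of the 45 and 3224 of the 13710 tested genes, a like share. With 2 pairs the count moved widely between fits: DESeq2 called 4 (Upf2 and Smg1 above, Lsm5 and Exosc3 below) and 11.5% of all tested genes, a fit of the Tet1 libraries alone called 30 and 55% of all tested genes, and one of their library set alone called 26 and 46.8%. Upf2 had 9.12 and 8.81 TPM in Tet1 IP and 1.94 and 1.34 TPM in input. Both IP values were well above both inputs, with a fitted ratio of 2.32 (SE 0.68, adjusted p = 0.069). Smg1 had 6.12 and 6.34 TPM in IP and 3.15 and 2.48 TPM in input, without overlap, and a fitted ratio of 1.01 (adjusted p = 0.075).

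Lsm5 had 282 and 217 TPM in Tet1 IP and 413 and 356 TPM in input. Both IP values were below both inputs, and the fitted ratio was -0.78 (adjusted p = 0.078). The Lsm ring had a median fitted ratio of -0.44 in Tet1, with 6 of the 7 below 0. Of the 17 Tet2 calls, 16 had the same sign in Tet1. Over all tested genes the fitted Tet2 and Tet1 ratios correlated at r = 0.76, and the share with 1 sign was not computed.

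No decay transcript differed between the Tet1 and the Tet2 ratio (0 of 45 by edgeR and by DESeq2, with 0% of all tested genes called by edgeR). By edgeR 517 of the 13710 tested genes were under an unadjusted p of 0.05, and 2 of the 45 were. These were Smg6, at -0.55 (SE 0.20, adjusted p = 0.94), and Exosc1, at 0.54 (SE 0.23, adjusted p = 0.94). Cnot3 had a fitted difference of like size with a wider error (-0.55, SE 0.41, adjusted p = 0.94). Smg6 had 8.31 and 9.03 TPM in Tet1 IP and 9.05 and 8.62 TPM in input. The Tet1 IP values lay on both sides of the inputs. In the Tet2 line Smg6 had 24.2, 28.8, 8.10 and 7.73 TPM in IP and 12.8, 13.3, 5.92 and 6.43 TPM in input. The excess was larger in replicates 1 and 2 than in replicates 3 and 4, and these last share the Tet1 library set. Within that set alone 1 decay transcript was called, Cnot7, at 0.69 (adjusted p = 0.023), and 2.35% of all tested genes were.

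A count that uses no fit gave a like picture across lines. By the ratio of TPM + 1, 22 of the 45 transcripts were above input in both Tet1 pairs (48.9%, against 50.9% of all tested genes), 21 in all 4 Tet2 pairs (46.7%, against 46.5%) and 18 in all 4 Tet2ΔRBD pairs (40.0%, against 31.8%). Below input in every pair were 15, 9 and 3 (30.1%, 11.9% and 8.56% of all tested genes). In all 3 lines at once, 13 were above in every pair: Cnot1, Cnot8 and Cnot10 of CCR4-NOT, Pan2 and Parn of the other deadenylases, Dcp2, Edc3 and Edc4 of decapping, Exosc6 and Exosc10 of the exosome, and Smg1, Smg5 and Upf2 of nonsense-mediated decay. Below in every pair of all 3 lines were Lsm1, Lsm2 and Lsm5. The shares of all tested genes above or below in all 3 lines were not computed, so these lists have no background.

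**Figure D4:**
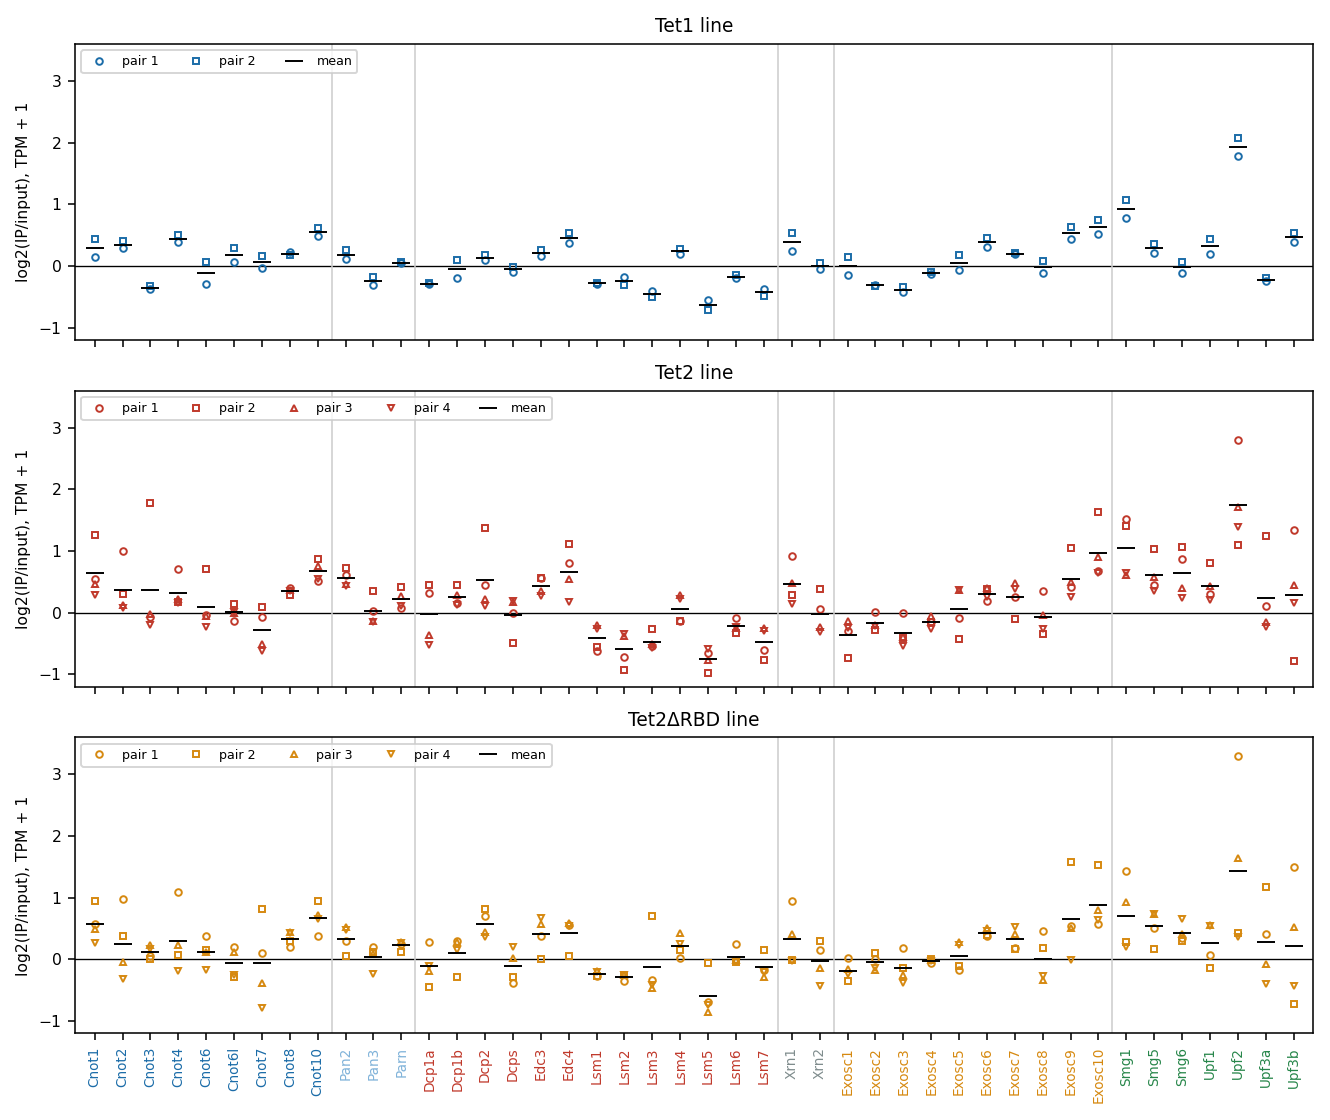
Log2 ratio of IP over input TPM + 1 for 44 decay transcripts in each of the 10 pairs, by role, with the mean of each line as a dash. Upf2 is above 0 in all 10 pairs, from 0.37 to 3.30, and Lsm2 is below 0 in all 10, from -0.93 to -0.18.

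The order of the transcripts followed their length. Across the 45 the fitted Tet2 ratio correlated with the log2 effective length at r = 0.66 (rho = 0.65), against r = 0.39 (rho = 0.44) across all tested genes, and at r = 0.56 (rho = 0.58) over the 38 without the Lsm ring. In the same transcripts it correlated with the log2 mean input level at r = -0.62 (rho = -0.54). These points share libraries and effective length is part of TPM, so the values are descriptive. In Tet2ΔRBD the correlation with length was r = 0.56 and in Tet1 r = 0.46.

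By length class the median ratios of the decay transcripts rose as those of other genes did, while some single transcripts lay far from their class. The 8 shorter than 1000 bases, 5 of them Lsm, had a median Tet2 ratio of -0.72 against -0.55 for the 1254 tested genes of that length, of which 49.0% were called below input. The 9 between 1000 and 2000 bases had -0.35 against -0.17, and the 15 between 2000 and 4000 bases had 0.03 against 0.06. The 13 of 4000 bases or more, among them Upf2, Smg1 and Xrn1, had 0.30 against 0.28 for 3517 genes, of which 27.3% were called above input. Smg1 was the longest of the 45, at 15485 bases. Far from their class median were Lsm1 (-0.74) and Lsm6 (-0.55) against 0.06, and Upf2 (1.85) and Smg1 (1.01) against 0.28. The part of length in the differences was not tested.

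**Figure D5:**
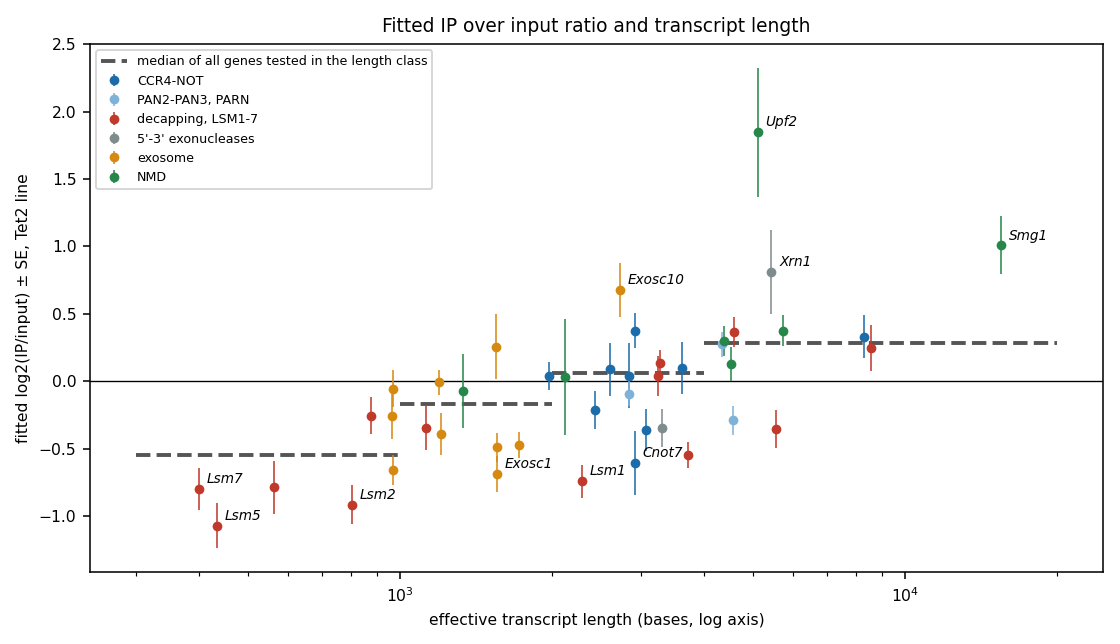
Fitted log2 Tet2 IP over input ratio against effective length (log axis) for 44 decay transcripts with standard errors as bars, beside the median of all tested genes in each length class (dashed lines). The decay transcripts climb from a median of -0.72 under 1000 bases to 0.30 at 4000 bases or more.

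The inputs ask whether the lines themselves expressed the decay machinery at different levels. Here fewer cells of a type and less RNA per cell cannot be told apart. Between Tet2ΔRBD and Tet2 inputs, with the library set as a term, 1 of the 45 was called (2.22%, against 3.14% of all tested genes), higher in Tet2ΔRBD (1.35% of all tested genes were higher and 1.79% lower). This was Upf1, with 70.4, 68.4, 25.0 and 24.6 TPM in Tet2ΔRBD and 50.2, 64.8, 18.2 and 19.4 TPM in Tet2. Each Tet2ΔRBD value exceeded the Tet2 value of its number, but replicates 1 and 2 of both lines were far above replicates 3 and 4. The fitted difference was 0.33 (SE 0.063, adjusted p = 0.029), and 0.32 without the library set term (adjusted p = 1.00). With a replicate block in place of the library set Upf1 was not called either, when 0.0379% of all tested genes were. The call was lost in 6 of the 8 omissions of 1 input, all but those of replicate 2 of either line (fitted differences of 0.30 to 0.34, adjusted p of 0.056 to 0.14).

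Between Tet1 and Tet2 inputs 15 of the 45 were called (33.3%, against 31.5% of all tested genes), 12 higher in Tet1 (26.7%, against 17.5%) and 3 lower (6.67%, against 14%). All Tet1 inputs belong to 1 library set, so this comparison rests on Tet2 inputs 3 and 4 of that set. Upf1 had 44.7 and 44.1 TPM in the Tet1 inputs, above Tet2 inputs 3 and 4 and below Tet2 inputs 1 and 2, with a fitted difference of 1.17 (SE 0.082, adjusted p = 9.58e-05), or 0.18 without the library set term (adjusted p = 1.00). Edc4 had 22.8 and 24.0 TPM in Tet1 and 29.1, 39.0, 12.96 and 14.0 TPM in Tet2, again between both parts of the Tet2 group, with a difference of 0.70 (adjusted p = 0.00074) that turned to -0.06 without the library set term. Cnot1 was higher by 0.77 (SE 0.23, adjusted p = 0.032), a call lost in 5 of the 6 omissions of 1 input, all but that of Tet2 replicate 2.

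The other 9 that were higher were Parn, Pan2, Edc3, Cnot3, Exosc2, Exosc6, Exosc7, Cnot8 and Dcp1a, and the lower ones included Exosc5 (-0.40) and Lsm7 (-0.36), both of which were lost without any one of the Tet1 inputs or of Tet2 inputs 3 and 4. Without the library set term none of the 45 was called in either input comparison. Markers of other cell types also varied, within lines as well as between them. The endoderm gene Gata4 ranged from 1.99 to 43.7 TPM over the inputs and from 1.99 to 35.2 TPM within the Tet2 inputs. In the shared library set it had 9.71 and 11.0 TPM in Tet1 and 1.99 and 2.29 TPM in Tet2 inputs. Thy1 went the other way there, with 10.7 and 12.9 TPM in Tet1 and 33.1 and 31.6 TPM in Tet2. The summed level of the list, which mixes such markers, was 34.6 to 36.4 TPM in Tet1, 43.8 to 82.6 TPM in Tet2 and 66.6 to 115 TPM in Tet2ΔRBD inputs. The part of these markers in the differences was not tested.

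Of 59 other genes with a role in mRNA turnover 57 were measured. In the Tet2 IP 13 were above input and 20 below (22.8% and 35.1%, against 14.6% and 18.5% of all tested genes). In Tet2ΔRBD 5 were above and 13 below (8.77% and 22.8%, against 7.4% and 12.1%), and in Tet1 1 was above and 6 below (1.75% and 10.5%, against 2.72% and 3.18%). Among them were the catalytic partners of the exosome, Dis3 at 1.19 (adjusted p = 0.016) and the cytoplasmic Dis3l at 1.20 (adjusted p = 0.021) in Tet2. The Ski complex genes were split in Tet2. Ttc37 at 1.16 (adjusted p = 0.0031) and Skiv2l at 0.62 (adjusted p = 0.0061) were above input, and Wdr61 at -0.38 (adjusted p = 0.038) was below. Dis3l2 had 0.07 (adjusted p = 0.68), and Ddx6, a helicase that promotes decapping, was called at -0.27 (adjusted p = 0.043) but had 0.05 (adjusted p = 0.71 by limma) on the scale of TPM + 1. Dis3 had 64.2, 51.5, 31.5 and 29.7 TPM in Tet2 IP and 13.5, 13.9, 15.3 and 16.5 TPM in input, without overlap. The widest gaps were in replicates 1 and 2, and without replicate 1 its ratio was 1.01 (adjusted p = 0.068). Dis3l was called under 10 of 13 alternatives, with a ratio from 0.61 to 1.49.

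Pabpc1, the cytoplasmic poly(A)-binding protein, had 1382, 610, 1321 and 1257 TPM in Tet2 IP and 234, 227, 220 and 208 TPM in input. It was above input by 1.98 in Tet2, 2.06 in Tet2ΔRBD and 2.85 in Tet1 (adjusted p of 0.0010, 0.0018 and 0.019), and was the 1 gene of this list called above input in the Tet1 IP. Its Tet2ΔRBD inputs held 231, 95.2, 186 and 613 TPM, input 4 being the highest. Zcchc6, which adds uridines to deadenylated mRNA, was above by 2.02 in Tet2 (adjusted p = 0.0049). Below input in Tet2 were Magoh, of the exon junction complex (-1.55, adjusted p = 0.00041), and Tob1, which recruits CCR4-NOT (-1.09, adjusted p = 9.40e-05). Cnot9, a CCR4-NOT subunit that the tables list under its older symbol Rqcd1, was also below (-0.55, adjusted p = 0.0028). The transcripts of the tagged genes were themselves measured: in the Tet2 IP Tet2 was above input by 0.56 (adjusted p = 0.043), while Tet1 had 0.52 (adjusted p = 0.066).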

How the data were processed

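RNA from anti-Flag precipitates and matched inputs of 3 tagged mouse ESC lines was analysed from RSEM gene tables (20 libraries). The authors filtered reads for low complexity and, with Bowtie2, for rRNA and tRNA, trimmed them with Trimmomatic, and quantified mm9 RefSeq genes with RSEM. Their versions and the strand setting are not given in the sources used here. The deposited expected counts were rounded to whole numbers before testing. The deposited TPM column already holds TPM + 1, a score rather than plain TPM, so 1 was subtracted to print TPM. The effective lengths were also taken from the authors' tables.

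Genes with at least 1 CPM in 2 libraries were kept (13710 in the IP fit, 13310 in the input fit). IP effects were fitted per line in edgeR 4.0.16 (TMM, quasi-likelihood test) over the 20 libraries, blocked by pair of IP and input (7 residual degrees of freedom), and inputs by line and library set (5). Library sets were read from the numbering in the deposited file names. P-values were adjusted by Benjamini-Hochberg over all tested genes, with a threshold of 0.05. All p-values are two-sided. IP and input of the same number deviated together (mean correlation 0.76 in Tet2 and 0.71 in Tet2ΔRBD, lowest 0.58, and 0.27 in Tet1 with 2 pairs), so they were treated as pairs. Between replicates 3 and 4 these correlations did not single out the pair. IP 3 had 0.808 with input 3 and 0.769 with input 4 in Tet2, and 0.736 and 0.605 in Tet2ΔRBD. IP 4 had 0.801 with input 3 and 0.78 with input 4 in Tet2, and 0.726 and 0.58 in Tet2ΔRBD.

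Alternatives were DESeq2 1.42.0, log2 TPM values with a pseudocount of 1 or 0.1 in limma 3.58.1, no pair block, other filters, RLE, replicates 3 and 4 merged, subsets of libraries and each replicate left out. Replicates 3 and 4 differed by more than counting noise, which does not show that they were separate cultures. They were far more alike than other replicates. Between them a chi-square per gene was 3.25 in Tet2 IP, 3.48 in Tet2 input, 2.69 in Tet2ΔRBD IP and 16.1 in Tet2ΔRBD input. Other replicates of these groups had 132 to 526. Replicates 3 and 4 were kept apart, with their merging as an alternative. Merged, 23.4% of all tested genes were called in Tet2 (from 33.1%) and 7.79% in Tet2ΔRBD (from 19.5%). Coding sequences came from the mm9 annotation given (44 of 45 matched). Of the 45 genes, 1 enters the counts but is not reported here by name or drawn. Scripts were tested on simulated data. The rule for named genes took 15 with catalytic or central roles. It added up to 8 calls a line with the largest ratios of 1 sign in every pair. It also added the 3 furthest apart between lines among those with 1 sign at every shared replicate number. Dis3, Dis3l, Dis3l2, Skiv2l and Ddx6 completed it. Other genes with values were chosen after their values were seen. The decay genes and the other lists were chosen with earlier results of these data known.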

Additional observations from a re-analysis of the deposited data

Results flagged for a closer look

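In 6 of the 52 groups of 4 pairs examined, 1 pair lay far from the other 3. Chance alone marks about 1 group in 20 where the 4 pairs are independent. Pairs 3 and 4 share a library set and lie close together, so that rate need not hold here. All 6 flags were in replicate 1 or 2. In the Tet2 line this was Cnot3, a CCR4-NOT subunit, in replicate 2, with a log2 ratio of IP over input TPM + 1 of 1.78: Cnot3 had 67.8, 318.5, 42.6 and 41.4 TPM in the 4 Tet2 IP libraries and 71.3, 92.1, 42.98 and 48.0 TPM in the inputs, so that its IP 2 stood alone. In the Tet2ΔRBD line these were Lsm3 in replicate 2 (0.70, the others below 0), Lsm6 in replicate 1 (0.26), Lsm2 in replicate 1 (-0.35), Edc4 in replicate 2 (0.063) and Parn in replicate 2 (0.11).

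Cnot3 was below input in both Tet1 pairs and above it in all 4 Tet2ΔRBD pairs, with a difference in the mean log2 ratio of TPM + 1, Tet1 minus Tet2ΔRBD, of -0.47. This difference was not tested.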

How the results depend on the processing

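With 4, 4 and 2 pairs and fits on 7 and 5 residual degrees of freedom, small differences were below what these data could resolve, and the low counts of Xrn1 (22 to 254 per library) limit that transcript. Over all single-gene results and alternatives, 538 values kept direction and side of the threshold, 135 lost the call, 40 gained one and 15 changed direction. In the Tet2 IP, Lsm2 and Exosc3 were called under all 13 alternatives, and Lsm1, Lsm5, Lsm7, Exosc1 and Smg1 under all but the fit without the replicate block. The cause of the changes below was not tested unless fewer libraries are named.

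Without the replicate block the pairing was lost and the decay transcripts called fell from 17 to 2 in Tet2 and from 8 to 0 in Tet2ΔRBD, and the number above input in every Tet2ΔRBD pair became 31. In the library set of replicates 3 and 4 alone, 26, 26 and 30 were called in Tet1, Tet2 and Tet2ΔRBD (46.8%, 49.9% and 49.1% of all tested genes), and 1 between Tet1 and Tet2 (2.35%). In Tet1 DESeq2 called 4 and the libraries of the compared lines alone gave 30. In Tet2ΔRBD limma called 16 with either pseudocount, 15 of them above input, while the compared lines alone and the merging of replicates 3 and 4 each left 1. Without 1 replicate the counts ran from 11 to 17 in Tet2 and from 1 to 10 in Tet2ΔRBD. In the inputs, Tet2ΔRBD against Tet2 gave 7 in the last library set (20.9% of all tested genes, an alternative chosen after seeing the data), 0 without the library set, 0 with a replicate block and 0 to 5 without 1 replicate. Tet1 against Tet2 gave 23 in that set (49.8%, also chosen after seeing the data), 0 without the library set and 9 to 21 without 1 replicate.

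With a 1.5-fold minimum, 2, 3 and 0 transcripts were above input in every pair of Tet1, Tet2 and Tet2ΔRBD, and centring each pair on its median left 12 in Tet2. Centred, the median log2 ratio of the 45 was 0.023 in Tet2 and 0.044 in Tet2ΔRBD, and without 1 replicate it ran from 0.16 to 0.30 in Tet2. Direction changed for called values of Ddx6 in Tet2 under limma (0.047 with a pseudocount of 1 and 0.048 with 0.1, from -0.27) and for Edc4 between Tet1 and Tet2 inputs without the library set (-0.059). It also changed for values in Tet2 that were called neither as reported nor under the alternative. With pseudocounts of 1 and 0.1 limma gave 0.097 and 0.10 for Cnot6, 0.0031 and 0.0096 for Cnot6l and 0.22 and 0.22 for Parn, which ran from -0.14 to 0.025 without 1 replicate. Cnot8 had -0.020 with replicates 3 and 4 merged and ran from -0.019 to 0.12 without 1 replicate. Dcp2 had -0.036 in the last library set and Dis3l2 -0.0088 without the replicate block.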
